A study of Zea mays with 10 samples.

Results

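Glutamine synthetase joins ammonium to glutamate and so makes glutamine, the entry point of inorganic nitrogen into organic compounds. The plastid form, GS2, takes up the ammonium that leaves released by nitrite reduction and photorespiration, and ferredoxin-dependent glutamate synthase then passes the amide group on to 2-oxoglutarate. The cytosolic forms, GS1, make glutamine for transport between organs, and in maize they are encoded by several closely related genes. The family was followed here through the probe sets whose gene symbol or synonym in the array annotation was gln and a number. That rule found 5 probe sets, 1 for each of 5 genes, of the 17621 probe sets on the array that were not controls. The RefSeq table (assembly Zm-B73-REFERENCE-NAM-5.0) named 6 such genes, and the remaining one, gln4, was not analysed here.

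The 10 arrays came from B73 seedlings that had been grown for 7 days under photocycles of 12 h light and 12 h dark and were then kept in constant light (LL) and constant temperature. Tissue was the whole aerial portion of the seedling, so that mesophyll and bundle sheath were measured together, and fewer cells of a type cannot be told apart from less RNA per cell. Time is given as ZT, the hours since the dawn at which LL began, and there was 1 array every 4 h from ZT0 to ZT8 and again from ZT20 to ZT44 (the times between, ZT12 and ZT16, were not analysed here). An array held cRNA from 3 pooled replicates of 5 seedlings, so a time point had 1 value, and the errors below measure how far the 10 arrays scattered about a fit or a mean.

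The single plastid member was gln1, with the synonym gs2 and the gene model GRMZM2G098290. The other 4 members were cytosolic. These were gln2 (synonym gs1-2, GRMZM2G024104), gln3 (synonym GS1-5, GRMZM2G046601), gln5 (synonym gs1-4, GRMZM2G036464) and GLN6 (synonym GS1-1, GRMZM2G050514). In maize, plants that lack the gene of gln5 set smaller kernels. The names overlap, since GLN2 is also a synonym of the plastid gene gln1. The probe set of gln3 was uncertain, because the study's own matching table assigned it to the gene model of GLN6. Close cytosolic copies may share signal on the array, and the levels of different probe sets are not compared.

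All 5 members were bright enough to be tested (50 or more in deposited signal, on 3 arrays or more), as were 12512 probe sets in all. The normalized signal, on a linear scale, averaged 2929 ± 506.5 (SD, n = 10 arrays) for gln1, 203.8 ± 78.9 for gln2, 49.8 ± 15.6 for gln3, 3110 ± 358.4 for gln5 and 1649 ± 369.8 for GLN6. The probe set of gln3 lay at the edge of the filter and reached 50 on 4 of the 10 arrays before normalization (ZT0, ZT4, ZT8 and ZT28). It thus passed the filter only through arrays on which it was high. The highest array exceeded the lowest by 1.48-fold for gln5, 1.76-fold for gln1, 2.17-fold for GLN6, 2.89-fold for gln3 and 2.94-fold for gln2.

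The plastid member gln1 was highest around subjective dawn. Its normalized signal was 3708 at ZT0, 2593 at ZT4, 2108 at ZT8 and 3592 at ZT20, and on the second day it was 3287 at ZT24, 2649 at ZT28, 2868 at ZT32, 2913 at ZT36, 2451 at ZT40 and 3121 at ZT44. Its 4 highest arrays were thus ZT0, ZT20, ZT24 and ZT44, and ZT8 was the lowest. The second cycle was flatter than the first, and ZT40 in the subjective night lay below ZT28 in the subjective day. A 24-h cosine fitted together with a linear change had a peak at 21.62 ± 1.81 h (SE) and a peak-to-trough amplitude of 0.47 ± 0.16 (SE) in log2, or 1.39-fold. On the arrays from ZT24 to ZT44 alone, fitted without the linear change, the amplitude was 0.19 ± 0.14, with an unadjusted limma p of 0.424 and a peak at 23.86 h. Without ZT8 it was 0.32 ± 0.15 over the whole course. Of the tested probe sets 85.7% had a smaller amplitude, and the median amplitude of all was 0.23.

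The gln1 curve had an unadjusted limma p of 0.0372 and an adjusted p of 0.416, and so did not pass the threshold of 0.05. It was the only one of the 5 members under 0.05 before adjustment, where 11.1% of all tested probe sets (1385 of 12512) stood. After adjustment 0 of the 5 members were called, with a background of 0% of all probe sets. In simulated data of 12512 probe sets, the 24-h test recovered 65.6% of curves with an amplitude of 1 in log2 and 93.2% of those with an amplitude of 2. Both sizes are larger than the amplitude of any member, and smaller ones were not simulated. The simulated scatter was drawn independently for each probe set and array. Scatter that probe sets share on an array was not simulated, so recovery on the real arrays may be lower.

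Of the cytosolic members, gln2, gln5 and GLN6 had fitted peaks late in the subjective night, near that of gln1, and gln3 had one in the subjective day, each with a wide error and none called. The peak of gln2 was at 22.68 ± 4.03 h (SE), with an amplitude of 0.43 ± 0.37 in log2 and an adjusted limma p of 0.803. For gln5 the peak lay at 23.9 ± 3.56 h with an amplitude of 0.14 ± 0.14 and an adjusted limma p of 0.828, and for GLN6 at 23.99 ± 2.12 h with 0.34 ± 0.20 and 0.642. The time for gln3 was in the subjective day, at 6.67 ± 2.42 h, with an amplitude of 0.40 ± 0.22 and an adjusted limma p of 0.616. Fitted without a linear change, the peaks of gln5 and GLN6 moved to 17.13 and 17.09 h, so the time of day of these members depended on that term. For gln3 the amplitude was 1.01 ± 0.32 (SE) without the linear change and 0.80 ± 0.23 with a step between the days. The limma p of these fits were 0.0288 and 0.017 before adjustment and 0.312 and 0.294 after it. The peak of gln3 lay between 2.4 h at a period of 28 h and 12.37 h at a period of 20 h. The amplitude of gln2 lay between 0.17 without ZT8 and 0.80 without ZT40, and that of gln5 fell to 0.059 without ZT24.

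**Figure D1:**
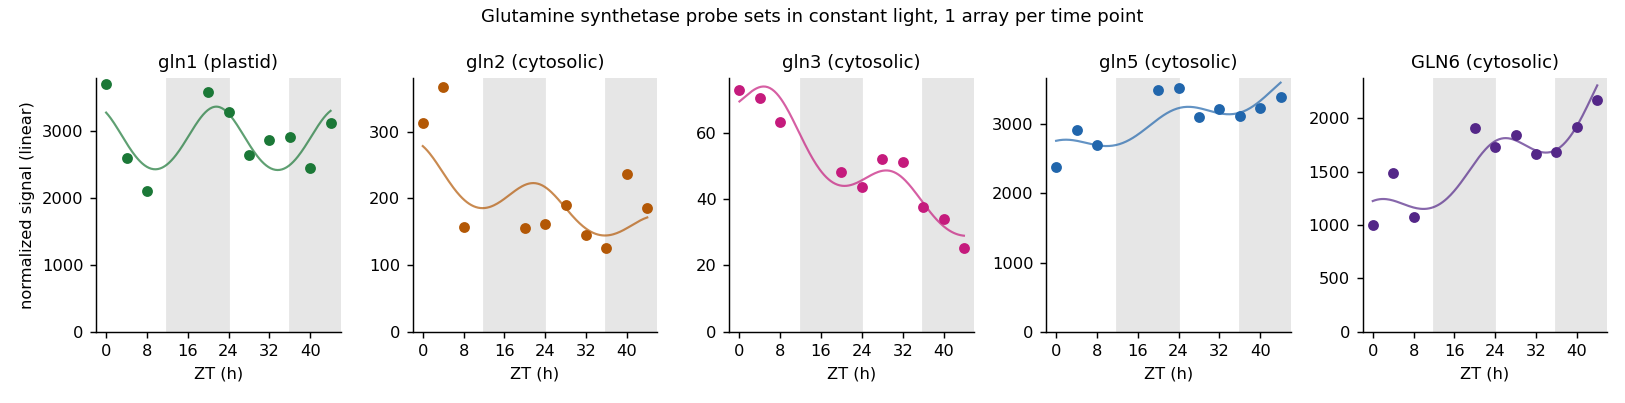
Normalized signal (linear scale, y axis from 0, a separate scale for each panel) of the 5 glutamine synthetase probe sets against ZT in hours, with 1 point per array, the fitted 24-h cosine with linear change as a line, and the subjective night in grey. The 4 highest points of gln1 are ZT0, ZT20, ZT24 and ZT44, gln3 falls from 72.8 at ZT0 to 25.2 at ZT44, and GLN6 rises from 997.8 at ZT0 to 2167 at ZT44.

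Over the whole course, 1 cytosolic member rose and another fell. GLN6 was lowest at ZT0 and highest at ZT44. Its normalized signal was 997.8, 1491 and 1079 at ZT0, ZT4 and ZT8, and 1911, 1732, 1841, 1665, 1682, 1922 and 2167 on the 7 arrays from ZT20 to ZT44, in order of time. All 7 later arrays lay above the first 3. The linear term was 0.55 ± 0.12 (SE) in log2 per 24 h, or 1.46-fold, and GLN6 rose with an adjusted limma p of 0.0325. It was the only member called as risen, where 3.33% of all tested probe sets were.

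The probe set of gln3 went the other way. Its normalized signal was 72.8, 70.5 and 63.2 at ZT0, ZT4 and ZT8. On the arrays from ZT20 to ZT44 it was 48.2, 43.6, 52.1, 51.1, 37.5, 33.9 and 25.2, so that all 7 later arrays lay below the first 3. The filter was passed through ZT0, ZT4, ZT8 and ZT28, so neither this order nor the fall below is independent of it. With no filter the adjusted limma p of the linear term was 0.0608. The linear term was -0.60 ± 0.15 (SE) in log2 per 24 h, or 0.658-fold, and gln3 fell with an adjusted limma p of 0.0409, close to the threshold. It was the only member called as fallen, where 3.22% of all tested probe sets were. With 32 added to the signals before log2, which weighs dim values less, the term was -0.36 ± 0.08 and the adjusted limma p 0.0356.

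The fall of gln3 and the rise of GLN6 kept their direction with each array left out and with deposited or median-centred values, but not their calls. The call of gln3 was kept only without ZT20, and without any one of the other 9 arrays its adjusted p was between 0.0562 and 0.186. That of GLN6 was lost without ZT0 (adjusted p = 0.114), ZT8 (0.0932), ZT24 (0.0606), ZT28 (0.19) or ZT32 (0.0782), and with median centring (0.0527), all from limma.

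The normalized signal of gln5 was 2385, 2916 and 2704 at ZT0, ZT4 and ZT8, and 3494, 3522, 3105, 3227, 3118, 3237 and 3394 from ZT20 to ZT44. Like GLN6, it had its 3 lowest normalized values on the first 3 arrays, and its later arrays lay between 3105 and 3522. Its linear term of 0.23 ± 0.09 (SE) in log2 per 24 h had an adjusted limma p of 0.124, and 0.0284 without ZT20. At an unadjusted p of at most 0.05, 2 members had a positive term (gln5 and GLN6), where 13.6% of all probe sets did, and gln3 alone had a negative one, where 13.8% did.

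For gln2 the values were scattered. Its normalized signal was 312.4 at ZT0, 367.7 at ZT4 and 156.8 at ZT8, and 156.2, 161.5, 190.0, 145.4, 125.3, 236.6 and 186.3 at the later times. The arrays of ZT0, ZT4 and ZT40 stood above the other 7, which lay between 125.3 and 190.0. Its lowest array, ZT36, also had the highest ratio of 3′ to 5′ signal of the ef1a control, 4.13 against 2.22 to 3.09 on the other arrays, and the part of RNA quality in that value was not tested. The linear term was -0.36 ± 0.26 (SE) in log2 per 24 h with an adjusted limma p of 0.396. In gln1 the linear term was near 0, at -0.01 ± 0.12 (SE) in log2 per 24 h, and its adjusted limma p was 0.978.

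In 3 of the cytosolic members the first 3 arrays stood apart from the later 7 in normalized signal. In 2 of them, gln5 and GLN6, all of ZT0, ZT4 and ZT8 were below the other arrays, as in 10.1% of all tested probe sets. In gln3 they were all above, as in 11.5%, but gln3 passed the filter mainly through those arrays, so its separation is not independent of the filter. Before normalization gln5 at ZT4 (3067) lay above its ZT28 (2979) and ZT36 (3003), so its separation depended on the normalization. From ZT20 on, in an added fit chosen after the values were seen, the linear term of GLN6 was 0.21 ± 0.12 (SE) in log2 per 24 h with an adjusted limma p of 0.999, that of gln5 was -0.06 ± 0.10, and 0 of all probe sets were called. Too few of those arrays reached the signal minimum for gln3 to be fitted there.

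Other values moved with the first arrays. Summed over its 14 probe sets, a list of leaf markers (enzymes of C4 photosynthesis, the small subunit of Rubisco and light-harvesting proteins) had a normalized signal of 92540 to 95710 on the first 3 arrays and 81270 to 90790 on the other 7. Of the 12 leaf probe sets tested, 3 were called, all of 1 gene, lhcb6, and fell by 0.38 to 0.48 in log2 per 24 h. Of all tested probe sets 3.22% were called as fallen. Among the C4 enzymes the linear terms were 0.02 for pep1, 0.01 to 0.12 for pdk1 and -0.11 for me3. Those of Lhcb5-2, lhcb5 and the Rubisco small subunit were -0.10, -0.06 and -0.16, and none of these was called. The summed signal therefore does not describe each marker. Summed seed markers were at 130.8 to 138.4 on the first 3 arrays and 89.8 to 124.0 on the others, with 1 of 10 probe sets, of the zein zp27, past the filter, and the other zein probe sets averaged at most 9.17. The brightest probe set of an array reached 15129 to 16839 at ZT0, ZT4, ZT8 and ZT24 and 10020 to 13264 at the other times. The part of these in the changes of gln3, gln5 and GLN6 was not tested.

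**Figure D2:**
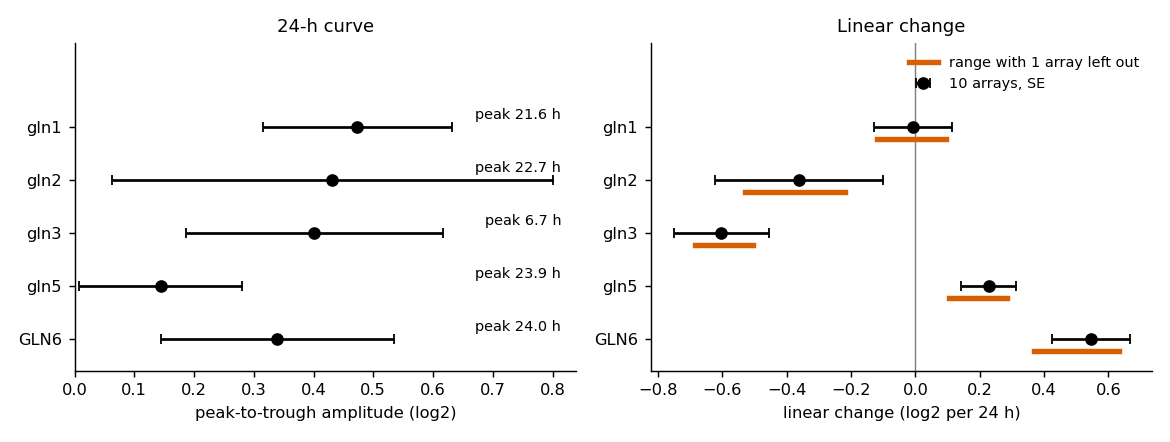
Left, peak-to-trough amplitude of the fitted 24-h cosine in log2 (points) with its SE (bars) and the fitted peak time; right, linear change in log2 per 24 h with its SE (black) and the range of the estimate when each of the 10 arrays was left out in turn (orange). The amplitudes lie between 0.14 and 0.47, and the orange ranges of gln3 (-0.68 to -0.50) and GLN6 (0.37 to 0.63) do not reach 0.

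The same time of day was sampled on both days at 4 times, 24 h apart. From ZT0 to ZT24 the normalized signal of GLN6 went from 997.8 to 1732 (1.74-fold), that of gln2 from 312.4 to 161.5 (0.517-fold) and that of gln3 from 72.8 to 43.6 (0.598-fold). These 3 members passed a change of 1.5-fold, a limit chosen after the values were seen, where 13.1% of all probe sets did. From ZT4 to ZT28 only gln2 passed it (0.517-fold, background 11.1%). From ZT8 to ZT32 GLN6 was the only one (1.54-fold, background 10.2%). From ZT20 to ZT44 gln3 went from 48.2 to 25.2 (0.523-fold), where 2.25% of all probe sets passed 1.5-fold, and the other 4 members had ratios between 0.869 and 1.19. Both of these gln3 values lay below the signal minimum of 50. The 2.25% is a share of all tested probe sets, of which 1.335% had a lower mean signal than gln3. The plastid member gln1 (ratios of 0.887, 1.02, 1.36 and 0.869) and the cytosolic member gln5 (1.48, 1.06, 1.19 and 0.971) stayed within 1.5-fold at all 4 times.

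The ZT0 array, taken as LL began, was also set against the curve of the other 9. The signals of gln5 and GLN6 lay below it by 0.40 ± 0.12 and 0.55 ± 0.17 (SE) in log2, written as departures of -0.40 and -0.55, with adjusted limma p of 0.213 and 0.219. Of the 5 members 0 were called, where 0.783% of all probe sets were, and these 2 were under 0.05 before adjustment, where 12.2% were. The departure of gln1 was 0.33 ± 0.23, so its high value at ZT0 was within the scatter around its curve.

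No member differed between subjective night (ZT20, ZT40, ZT44) and subjective day (ZT4, ZT8, ZT28, ZT32) after adjustment, with a background of 0% of all probe sets. The largest difference was in gln3, whose 3 night arrays lay between 25.2 and 48.2 and whose 4 day arrays lay between 51.1 and 70.5, a difference of -0.77 ± 0.28 (SE) in log2 with an unadjusted limma p of 0.0213 and an adjusted p of 0.557. With 32 added before log2 that difference was -0.44 ± 0.17. It was the only member under 0.05 before adjustment, where 8.79% of probe sets were. In normalized signal, groups of night and day arrays did not overlap for gln5 and GLN6, both higher at night, as in 6.43% of all probe sets. Nor did they for gln3, lower at night, as in 5.84%. No night array of gln3 reached the signal minimum before normalization, so this separation is not independent of the filter. For gln5 ZT40 (3237) was barely above ZT32 (3227), and before normalization it was below (3172 against 3221), so the groups overlapped. The night minus day difference of gln5 was 0.18 in log2, and 0.04 with median centring. The night arrays came later in the course on average, and this comparison holds no term for the linear change. For gln1 the night values, 2451 to 3592, overlapped the day values, 2108 to 2868.

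The plastid member was then compared with each cytosolic member, and the cytosolic members with each other, as the log2 difference between the 2 probe sets on each array. Over 24 h none of the 10 pairs passed the threshold. The amplitude of gln1 minus gln3 was the highest, at 0.81 ± 0.18 (SE) in log2 with a peak at 20.27 h, and its p from a permutation test of 100000 orders of the arrays was 0.111, or 0.742 adjusted over the 10 pairs. For gln1 minus gln2, gln5 and GLN6 the amplitudes were 0.13 ± 0.68, 0.36 ± 0.22 and 0.28 ± 0.32, with permutation p of 0.973, 0.461 and 0.709. None of the 10 pairs was under 0.05 before adjustment. For gln1 minus gln3 the outcome before adjustment depended on the model and the statistic. With the F statistic of the cosine and sine over the same orders, an alternative added after the values were seen, its permutation p was 0.0252 and 0.252 after adjustment. With the linear change replaced by a step between the days the amplitude was 1.06 ± 0.20 (permutation p = 0.0213, adjusted 0.189), and without either term 1.19 ± 0.34 (permutation p = 0.0469, adjusted 0.396). Leaving out ZT0 took the amplitude of gln1 minus GLN6 to 0.071 and that of gln1 minus gln5 to 0.175. No difference in time of day between the plastid and a cytosolic form passed the threshold after adjustment, which does not show that they peak together.

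Over the whole course, 6 of the 10 pairs differed in the linear change. Pairs of other probe sets were not compared, so no background share stands beside this count, and it is not read as a trait of the family. Among single probe sets, 13.6% of all tested had a positive linear term and 13.8% a negative one at an unadjusted limma p of at most 0.05. The 10 pairs share 5 probe sets and are not independent. This comparison of the linear change was added after the values were seen, and its permutation test treats the 10 arrays as exchangeable once the 24-h curve is removed. The widest gap was between gln3 and GLN6, at -1.15 ± 0.16 (SE) in log2 per 24 h (permutation p = 1e-05, the smallest that these orders allow, and 0.0001 adjusted over the 10 pairs). The study's matching table assigned both of these probe sets to the gene model of GLN6, so whether this pair compares different genes is uncertain. All pairs with gln3 also rest on a probe set near the signal minimum. On the log2 scale gln3 minus gln5 changed by -0.83 ± 0.14 per 24 h (permutation p = 6e-05, adjusted 0.0003). The plastid member gln1 rose relative to gln3 by 0.60 ± 0.14 (permutation p = 0.00562, adjusted 0.0141) and fell relative to GLN6, by 0.55 ± 0.22 (permutation p = 0.013, adjusted 0.0259). With 32 added before log2, gln1 minus gln3 changed by 0.35 ± 0.14 per 24 h (permutation p = 0.0258, adjusted 0.0429). The 3 called pairs with gln3 kept their calls in all 13 alternatives that were run. The remaining called pairs were gln2 minus GLN6 (-0.91 ± 0.35, permutation p = 0.0217, adjusted 0.0361) and gln5 minus GLN6 (-0.32 ± 0.09, permutation p = 0.00308, adjusted 0.0103).

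Single arrays decided some of these. The pair of gln1 and GLN6 lost its call without ZT0 (-0.27, adjusted p = 0.158 from an exact permutation test), ZT24, ZT28 or ZT44. That of gln2 and GLN6 lost it without any one of ZT0, ZT4, ZT8, ZT24, ZT28, ZT32 and ZT44, and the pair of gln5 and GLN6 without ZT0 or ZT28. The pair of gln2 and gln5 gained a call without ZT20 (-0.80, adjusted p = 0.0438, exact permutation test).

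**Figure D3:**
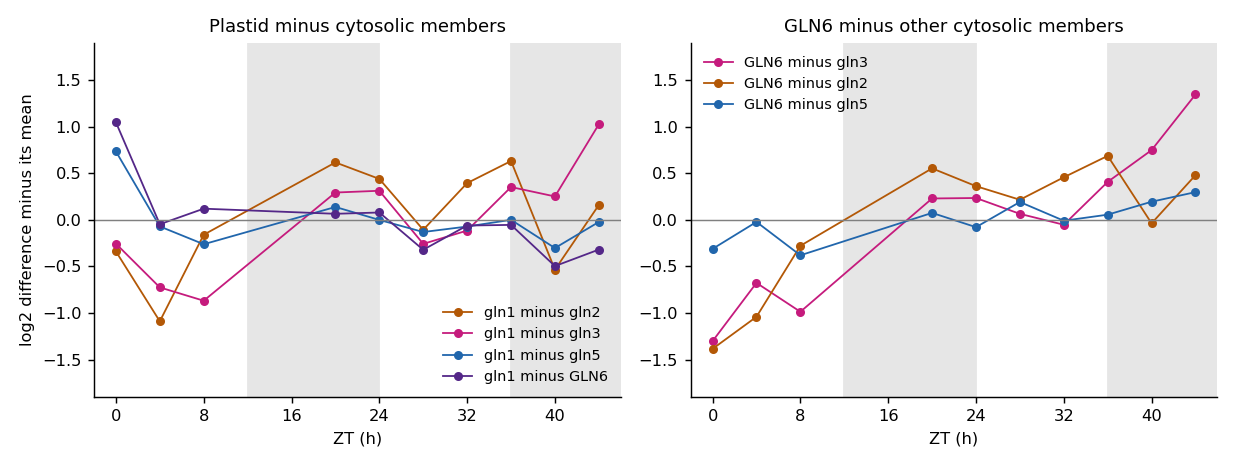
Log2 difference between 2 probe sets on each array, minus its mean over the 10 arrays (y axis), against ZT in hours, with the subjective night in grey; left, plastid gln1 minus each cytosolic member, and right, GLN6 minus each other cytosolic member. GLN6 minus gln3 climbs across the course, the reverse of the -1.15 per 24 h fitted to gln3 minus GLN6, and gln1 minus gln3 is lowest at ZT8, higher at ZT20 and ZT24, lower again at ZT28 and ZT32 and highest at ZT44.

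The genes around glutamine synthetase were described through 34 probe sets of nitrogen assimilation, of which 30, from 23 genes, were tested. Over 24 h 0 of the 30 were called, and 11 were under 0.05 before adjustment, against the 11.1% of all probe sets given above. Their median amplitude was 0.49 in log2. In the linear change 0 of 30 were called, where 3.33% of all tested probe sets were called as risen and 3.22% as fallen. Under an unadjusted limma p of 0.05 were 5 positive and 2 negative terms, where 13.6% and 13.8% of all tested probe sets stood. Fitted peaks between 20 h and 4 h were found in 12 of the 30 (40%), and in 36.6% of all tested probe sets.

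GLU1, the ferredoxin-dependent glutamate synthase that works with the plastid form, had a fitted peak at 22.33 h, near the 21.62 h of gln1. Its amplitude was 0.74 ± 0.18 (SE) in log2, with an unadjusted limma p of 0.00483 and an adjusted p of 0.306. Its highest normalized signals were 2561 at ZT20 and, after ZT44, 1993 at ZT24, and its lowest was 1168 at ZT8, the time at which gln1 was lowest as well. At ZT0, where gln1 was highest, GLU1 stood at 1592.

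Upstream of the ammonium that the plastid form uses, nitrate reductase (NNR1) had a fitted peak at 1.84 h and an amplitude of 1.13 ± 0.32 (SE) in log2, with an adjusted limma p of 0.362. It was highest at ZT4, at 2025, and lowest at ZT36, at 574.3. The 2 probe sets of nitrite reductase (NIR) had fitted peaks at 20.87 and 22.78 h and adjusted limma p of 0.616 and 0.485. In photorespiration, phosphoglycolate phosphatase, which makes glycolate, had a fitted peak at 21.97 h and an amplitude of 0.66 ± 0.22, and AGT, a peroxisomal aminotransferase, one at 17.45 h and 0.60 ± 0.11, with adjusted limma p of 0.404 and 0.265. The 5 probe sets of glycolate oxidase, from 2 gene models, had fitted peaks between 10.54 and 12.56 h, on the opposite side of the day from gln1, and none was called.

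Around the cytosolic members, AMT1, an ammonium transporter, was at 153.7, 151.3 and 352.6 on the first 3 arrays and between 457.7 and 738.6 on the other 7, in the direction of GLN6. Its linear term was 0.95 ± 0.25 (SE) in log2 per 24 h, with an adjusted limma p of 0.051. The glutamate dehydrogenase gdh1, which can release ammonium from glutamate, was between 598.6 and 718.2 on the first 3 and between 408.6 and 558.1 on the other 7, in the direction of gln3. Its term was -0.37 ± 0.12 per 24 h with an adjusted limma p of 0.0808. The other glutamate dehydrogenase tested, GDH2, had a positive term, 0.18 ± 0.20 per 24 h, with an adjusted limma p of 0.5835. In normalized signal, 3 (10%) of the 30 nitrogen probe sets had the first 3 arrays all below the others and 3 (10%) all above. These shares were near the 10.1% and 11.5% of all probe sets, and 2 and 1 of the 5 members did so.

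**Figure D4:**
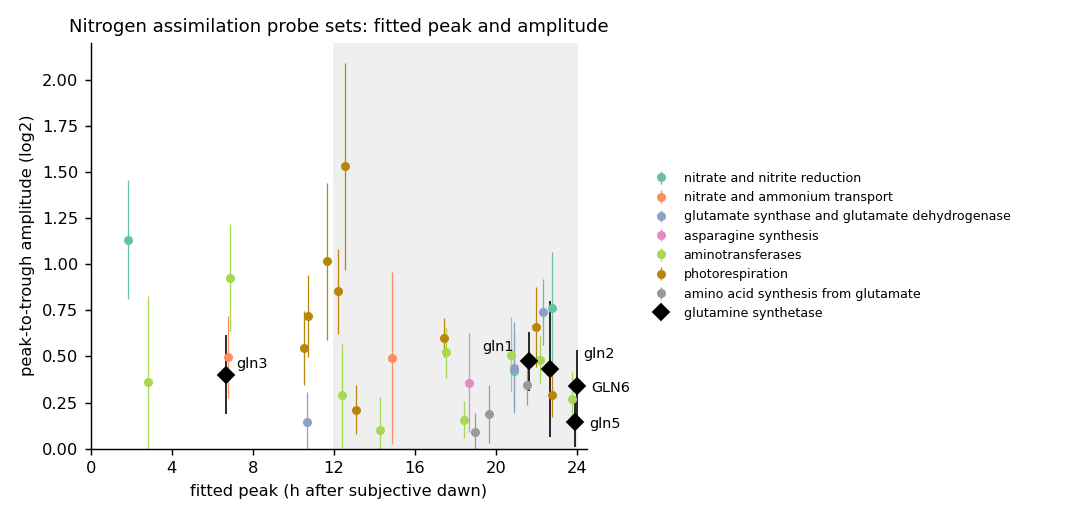
Peak-to-trough amplitude in log2 (y axis, bars give the SE) against the fitted peak in hours after subjective dawn (x axis, subjective night in grey) for the 30 nitrogen assimilation probe sets (circles, coloured by list) and the 5 glutamine synthetase members (black diamonds). The diamond of gln1 at 21.62 h lies near the glutamate synthase GLU1 at 22.33 h, that of gln3 stands apart at 6.67 h, and none of the points was called.

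Among the 2189 probe sets with a name, those most like each member over the 10 arrays were found by Pearson's r of the log2 signals, given as a description, since all share the same arrays and their normalization. For gln1 they were phosphoglycolate phosphatase (GRMZM2G018441, r = 0.95), ATGCH (GRMZM2G105466, r = 0.949) and arogenate dehydrogenase of tyrosine synthesis (GRMZM2G324297, r = 0.931). Phosphoglycolate phosphatase followed gln1 from 2479 at ZT0, the highest value of both, down to 992.4. Of the 30 nitrogen probe sets the next most like gln1 was ASP5 (r = 0.925), which is a plastid aspartate aminotransferase in Arabidopsis.

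The cytosolic members had other neighbours. For gln2 they were a pair of probe sets of the aquaporin PIP1-3 (GRMZM2G392975, r = 0.918 and 0.912) and SAG29 (r = 0.905), all highest at ZT4 as gln2 was. For gln3 they were ATCS (r = 0.89), GAPC (r = 0.873), the cytosolic glyceraldehyde-3-phosphate dehydrogenase of glycolysis, and por1 (r = 0.873). The neighbours of gln5 were a protein phosphatase 2C (GRMZM2G180430, r = 0.981), the zinc transporter ZIP4 (r = 0.964) and TT7 (r = 0.962), and those of GLN6 were ZIP4 (r = 0.957), the phosphoenolpyruvate carboxylase kinase PPCK1 (r = 0.944) and a FYVE zinc finger protein (r = 0.941). Counted over all tested probe sets, named or not, an r of at least 0.9 was reached by 104 for gln5 and 112 for GLN6. It was reached by 29 for gln1, 10 for gln3 and 9 for gln2.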

How the data were processed

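B73 seedlings were measured on Affymetrix GeneChip Maize Genome Arrays, 1 array per time point. The values the authors deposited are signal intensities on a linear scale, 1 per probe set, from MAS5 according to the submitters' processing notes (the sources used here give no version); the paper's own waveform analysis used RMAExpress values. A MAS5 signal is set relative to mismatch probes, which affects dim probe sets such as gln3 most. For arrays, the number of arrays limits the precision.

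Here, 113 controls were left out, 2968 values below 1 were raised to 1, and log2 signals were quantile normalized between arrays. A probe set was tested if its deposited signal was 50 or more on 3 arrays or more. The model, fitted in limma 3.58.1 (R 4.3.3; eBayes, trend = TRUE), held a 24-h cosine, a sine and a straight line over time, with 6 residual degrees of freedom and 4.3 prior ones. The cosine and sine were tested together, and p-values were adjusted by Benjamini-Hochberg over all 12512 probe sets, at a threshold of 0.05. Night against day (without the line) and the departure of 1 array from the curve were also fitted in limma. Alternatives were other normalizations, filters, a pseudocount of 32, robust variances, other terms for the course, periods of 20 to 28 h, and each array left out. SEs of amplitudes and peaks come from the delta method. Since no time point was replicated, p-values measure scatter around a curve, part of which may be technical. Pairs of members were compared by the log2 difference per array, with least squares and permutation of the array order (exact with 9 arrays; the statistic was the amplitude or the slope), in Python 3.11.15 with numpy 2.4.6. The limma fits were tested on simulated data.

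Names came from the platform annotation of the array, brought up to date with the RefSeq table, and from the study's matching tables. All members were named, and the 3 most alike probe sets per member. Other list genes were named from lists with at most 5 tested probe sets or from the 3 lowest p of a list. Not every list gene within these limits was named, among them Nrt1.1, asn1, HEMA1 and CARA. The 5 glycolate oxidase probe sets were described together after their values were seen. The members and lists were chosen with earlier results of these data known, and list entries were trimmed by name. A list of pollen markers kept no entry.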

Additional observations from a re-analysis of the deposited data

How the results depend on the processing

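Of the 636 alternative values computed, 568 were classed as unchanged. For an effect this meant the same direction and side of the threshold, and for a number of called probe sets an equal or similar count. Most of the 568 were results called neither in the main fit nor in the alternative. No member had a called 24-h curve, night against day difference, ZT0 departure or pairwise 24-h difference under any alternative run. Over all probe sets the 24-h count was 1 with an offset between the days and 45 from ZT24 on without the linear change. With each array left out in turn, the linear count ran from 2 (without ZT28) to 2311 (without ZT20), and that of night against day from 0 to 1. From ZT20 on, an alternative chosen after seeing the data, 0 linear changes were called, and the terms in log2 per 24 h were 0.43 for gln2, -0.06 for gln5 and 0.21 for GLN6. The fall of gln3 lost its call with no filter (-0.60), where more probe sets were tested, and the rise of GLN6 with median centring (0.51). At a minimum signal of 100, and on the later arrays alone, gln3 could not be fitted.

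With 1 array left out, the linear term in log2 per 24 h lay between -0.12 and 0.10 for gln1, -0.68 and -0.50 for gln3, 0.11 and 0.29 for gln5, and 0.37 and 0.63 for GLN6, and night minus day of gln2 between -0.23 and 0.22. The pairwise linear differences lay between -0.64 and -0.27 for gln1 minus GLN6, -0.80 and -0.37 for gln2 minus gln5, -1.14 and -0.63 for gln2 minus GLN6, and -0.36 and -0.26 for gln5 minus GLN6, and gln2 minus GLN6 lost its call at -0.86 with deposited or median-centred values. The pairwise amplitudes lay between 0.084 and 0.867 for gln1 minus gln2 and 0.087 and 0.784 for gln2 minus GLN6.

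The fitted 24-h curve turned over, with no call on either side, for gln2 at a period of 28 h (amplitude 0.057) and, without the linear change, for gln5 (0.21), GLN6 (0.49), gln1 minus GLN6 (0.54), gln2 minus GLN6 (1.04) and gln5 minus GLN6 (0.28), the last 3 being log2 differences. With an offset between the days it did so for gln1 minus GLN6 (0.34) and gln2 minus GLN6 (0.67). With 1 array left out it did so for gln1 minus gln2 (without ZT4, ZT20 or ZT28) and gln2 minus GLN6 (without ZT0 or ZT40). The cause of these changes was not tested. No block by replicate number could be fitted because every array has replicate number 1; the 4 times sampled on both days were set side by side with no test. Signal over background limits gln3 most, since it lay near the signal minimum.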
